A study of Mus musculus with 24 samples.

Results

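The genes described here are the working parts of the cell division cycle in mpkCCD cells, a mouse epithelial line of the kidney's cortical collecting duct. They comprise 45 genes that were looked up by gene name in a table of 12224 rows covering 24 RNA libraries. Of these, 44 had a row of their own, and all 44 passed the filter on low values that 11557 rows passed. The remaining gene, Anln, which encodes the cytokinesis scaffold anillin, stood only in a row joined with Rp9 and was not used. By role, 14 genes act in DNA replication, 3 are cyclins of G1 and of entry into S phase, and 27 act in mitosis and cytokinesis.

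The libraries formed 4 groups of 6. They held Gpr39 knockout (KO) cells given cpd1324, KO cells given vehicle, WT cells given cpd1324 and WT cells given vehicle. Here cpd1324 is an agonist of GPR39, a G protein-coupled receptor that zinc activates. The labels spell out WT as without transformation. Cells of every group grew for 9 days on transwell inserts without dDAVP, a vasopressin analogue, which lets them polarize. A simple medium replaced this for 24 h. For the last 2 h the basolateral side received 1 µM cpd1324 or 0.1% DMSO, and 10 µM ZnCl2 was present in every group, vehicle included. Whether the agonist groups also received DMSO is not given. The labels do not say whether replicates were separate cultures, so p-values measure the spread between these libraries. They also do not give the number of KO clones or the edited part of Gpr39. The library names number the groups in turn, with all vehicle libraries before all agonist libraries. Whether the numbers follow the order of handling is not given, and such an order could not be told apart from treatment.

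A dividing cell first licenses its replication origins by loading the MCM helicase with the help of CDC6 and CDT1. Cyclin E with CDK2 then opens S phase, and cyclins A and B with CDK1 drive mitosis. Genes of replication are known targets of E2F factors and peak at the G1/S boundary. Genes of mitosis peak in G2 and M, and are known to be held down in resting cells by the DREAM complex and raised by B-MYB and FOXM1. Polarized collecting duct epithelium is mostly quiescent in the animal, while a cell line keeps a dividing share of cells. In bulk RNA, more cells in a phase and more RNA per cell in that phase cannot be told apart.

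Much of the known control of mitosis genes acts through their promoters, so promoter windows are shown for the 6 members with the smallest adjusted p for the agonist effect in KO cells among those with a RefSeq window. Each is a window of 300 bases, mostly upstream of the annotated start, from the RefSeq annotation of GRCm38.p6, written on the strand of the gene. Capitals mark CCAAT, the box bound by NF-Y, and TTTGAA, a form of the cell cycle homology region (CHR) through which DREAM and B-MYB complexes bind, on either strand.
Cenpa (chr5:30666636-30666935, plus strand): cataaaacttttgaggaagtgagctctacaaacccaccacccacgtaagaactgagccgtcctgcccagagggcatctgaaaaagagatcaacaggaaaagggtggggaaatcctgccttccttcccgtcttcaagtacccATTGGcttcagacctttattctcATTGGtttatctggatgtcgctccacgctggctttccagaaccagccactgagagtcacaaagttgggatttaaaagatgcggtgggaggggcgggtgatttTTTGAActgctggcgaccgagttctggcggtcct
Cenpf (chr1:189688037-189688336, minus strand): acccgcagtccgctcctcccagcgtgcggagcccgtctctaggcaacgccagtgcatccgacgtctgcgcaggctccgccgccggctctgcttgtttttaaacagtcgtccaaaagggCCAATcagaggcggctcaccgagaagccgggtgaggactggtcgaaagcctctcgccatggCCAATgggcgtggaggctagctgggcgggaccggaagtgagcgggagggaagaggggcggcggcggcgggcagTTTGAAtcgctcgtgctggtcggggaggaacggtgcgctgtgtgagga
Top2a (chr11:99024140-99024439, minus strand): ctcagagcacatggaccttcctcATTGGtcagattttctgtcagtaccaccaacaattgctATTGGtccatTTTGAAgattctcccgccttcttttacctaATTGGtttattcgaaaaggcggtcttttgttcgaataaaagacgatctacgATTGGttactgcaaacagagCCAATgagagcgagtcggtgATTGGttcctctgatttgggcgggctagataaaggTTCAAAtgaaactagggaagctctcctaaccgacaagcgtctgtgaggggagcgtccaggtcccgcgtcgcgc
Cenpe (chr3:135212313-135212612, plus strand): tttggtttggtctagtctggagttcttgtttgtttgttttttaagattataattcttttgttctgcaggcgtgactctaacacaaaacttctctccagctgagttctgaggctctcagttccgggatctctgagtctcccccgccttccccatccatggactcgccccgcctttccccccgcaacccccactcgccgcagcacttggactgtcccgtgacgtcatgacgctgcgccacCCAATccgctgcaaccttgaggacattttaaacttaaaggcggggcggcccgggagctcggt
Bub1b (chr2:118597961-118598260, plus strand): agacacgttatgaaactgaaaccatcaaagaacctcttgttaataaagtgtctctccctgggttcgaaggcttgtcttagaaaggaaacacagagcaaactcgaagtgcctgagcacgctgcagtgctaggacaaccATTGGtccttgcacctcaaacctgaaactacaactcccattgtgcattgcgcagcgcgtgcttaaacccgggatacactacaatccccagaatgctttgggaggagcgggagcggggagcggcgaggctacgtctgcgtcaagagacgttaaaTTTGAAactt
Ttk (chr9:83834439-83834738, plus strand): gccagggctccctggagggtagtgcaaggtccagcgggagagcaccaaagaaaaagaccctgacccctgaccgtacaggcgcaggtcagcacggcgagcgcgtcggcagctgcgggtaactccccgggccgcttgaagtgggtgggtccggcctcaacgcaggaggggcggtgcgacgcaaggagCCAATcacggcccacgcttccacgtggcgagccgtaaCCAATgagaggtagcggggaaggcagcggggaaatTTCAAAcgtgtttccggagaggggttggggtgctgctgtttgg

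Among the 44 genes, 36 had a promoter window. None was given for Aurkb, Ccna2, Ccnd1, Ccne2, Gins2, Kif20a, Mcm4 and Tpx2. The 23 mitosis genes with a window had 25 windows, of which 88% held CCAAT, 80% held TTTGAA and 76% held both. Over all 32851 windows of the annotation, CCAAT stood in 37.4%, TTTGAA in 17.9% and both in 6.95%. Over the 11725 windows of genes with a row here, these shares were 37.2%, 11.9% and 4.84%. The median position of a TTTGAA match in mitosis genes was −10 from the annotated start, and that of a CCAAT match was −71. The replication genes differed in their letters. Of their 13 windows, 76.9% held CCAAT, but 7.69% (that of Mcm2) held TTTGAA. Either TTTGGCGC or TTTCGCGC, 2 spellings of the E2F site, stood in 38.5% of replication windows and in 4% of mitosis windows. The share was 0.813% of all windows and 1.5% of windows of genes with a row here. The window of Mcm5, an MCM helicase subunit and a gene of the genotype comparison described further on, is shown as an example with these spellings and CCAAT in capitals. It was chosen after its values were seen. Its 2 E2F matches overlap each other.
Mcm5 (chr8:75109259-75109558, plus strand): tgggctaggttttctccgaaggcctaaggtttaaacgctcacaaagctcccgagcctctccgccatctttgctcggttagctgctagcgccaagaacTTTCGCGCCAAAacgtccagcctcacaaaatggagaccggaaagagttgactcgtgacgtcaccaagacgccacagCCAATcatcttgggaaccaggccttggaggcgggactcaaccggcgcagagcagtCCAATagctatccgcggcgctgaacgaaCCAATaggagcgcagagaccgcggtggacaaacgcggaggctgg
A match describes letters in a window and is not evidence of binding in these cells.

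**Figure D1:**
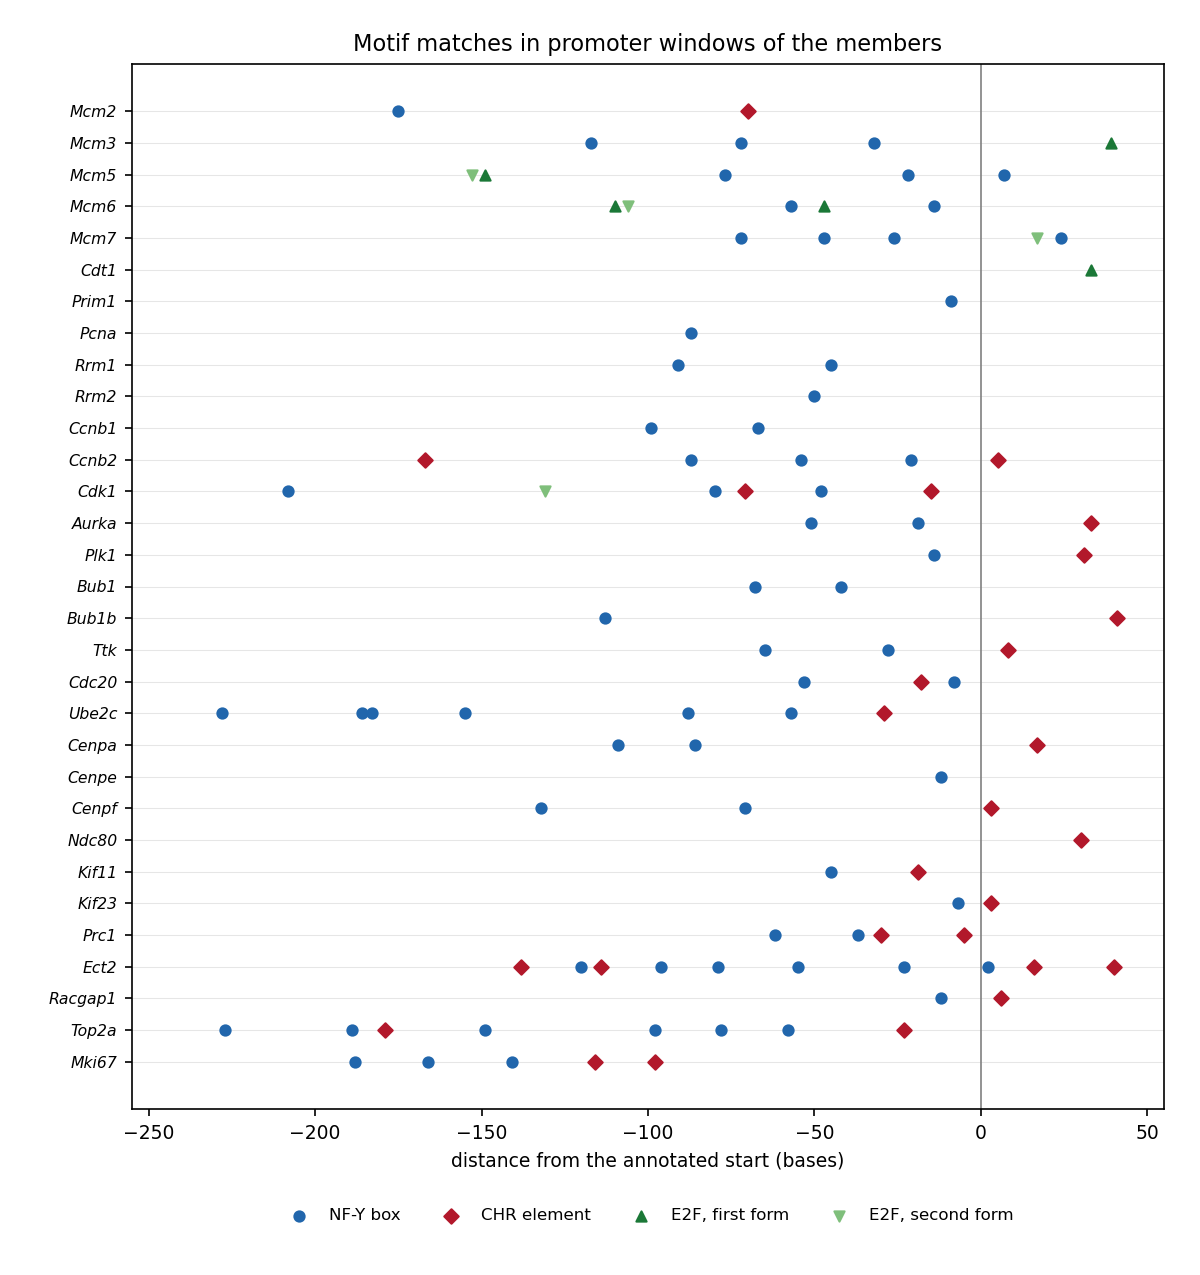
Matches to CCAAT (NF-Y box, blue circles), TTTGAA (CHR element, red diamonds), TTTGGCGC (E2F, first form, dark green triangles) and TTTCGCGC (E2F, second form, light green triangles) by distance in bases from the annotated start, in RefSeq windows of member genes with at least 1 match. In the mitosis genes, from Ccnb1 down, blue circles lie mostly upstream of red diamonds, with medians of −71 and −10, and the green triangles stand in 4 Mcm genes, Cdt1 and Cdk1.

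Levels are given in scaled units, which are the deposited length-normalized signal times 1 constant, so that levels of different genes can be set beside each other. Values of a group are its lowest, median and highest library. Differences are log2 fold changes ± SE from limma, and a gene was called at a Benjamini-Hochberg adjusted p below 0.05 over all 11557 rows. Recovered reads ran from 29.8 to 51.9 M per library. Library totals, which were left as the authors scaled them, ran from 896920 to 962927 scaled units in KO cells with agonist and from 945464 to 968796 in KO cells with vehicle. They were higher in WT cells with agonist (1085488 to 1197560) than in WT cells with vehicle (942669 to 989598), so 2 other scalings are given where they end a call. Gpr39 averaged 9.40 ± 0.882 scaled units in KO cells with agonist, 9.37 ± 0.645 in KO cells with vehicle, 29.2 ± 1.33 in WT cells with agonist and 21.6 ± 1.61 in WT cells with vehicle (SD, n = 6 each), and was lower in KO than in WT cells under both treatments. Of 11 principal cell markers, 9 had a row, and of 7 fibroblast markers 1 had a row, with a sum of 0.629 to 3.27 scaled units over all libraries. Of 7 general epithelial markers, 5 had a row, and they summed to 3870 to 4350 scaled units in KO cells with agonist, 3900 to 4500 in KO cells with vehicle, 8850 to 11500 in WT cells with agonist and 4190 to 4780 in WT cells with vehicle. The part of this shift in the WT results was not tested. The principal cell markers summed to 753 to 1000 scaled units in KO cells with agonist, 920 to 1030 in KO cells with vehicle, 545 to 672 in WT cells with agonist and 661 to 790 in WT cells with vehicle. KO vehicle replicate 6 stood apart from its group for many member genes. KO agonist replicate 2 was the lowest of its group for 25 of 27 mitosis genes. Counts that rest on these 2 libraries are given with and without them.

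Levels of the members spanned a wide range. In KO cells with vehicle the MCM subunit gene Mcm6 had the highest median among the 44, 538 scaled units, and Ttk, which encodes the checkpoint kinase MPS1, the lowest, 8.16. In WT cells with vehicle Mcm6 was again highest at 476, and the cyclin E2 gene Ccne2 was lowest at 9.66. Proliferation markers were present in every group. Mki67, which encodes the Ki-67 antigen of dividing cells, had 44.8, 62.3 and 66.0 scaled units in KO cells with agonist, against 35.2, 37.5 and 66.0 with vehicle. In WT cells it had 39.5, 50.9 and 57.3 with agonist, against 26.9, 37.9 and 53.6 with vehicle.

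The first question was how the mitosis genes differed between agonist and vehicle after 2 h, in cells without and with an intact Gpr39. In KO cells they rose nearly as a block. Of 27 mitosis genes, 26 were called higher, and the median log2 fold change was 0.50 (range 0.29 to 0.69), against −0.01 over all rows. Of all rows, 9.3% were called in KO cells, 4.66% higher and 4.64% lower. The gene that missed the call was Cdk1, which encodes the mitotic kinase itself (0.29 ± 0.09, adjusted p = 0.0524). In WT cells 22 of the 27 were called higher and all 27 fold changes were positive, with a median of 0.36 (range 0.23 to 0.52), against −0.01 over all rows. There 57.2% of all rows were called, 28.6% higher and 28.6% lower.

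In KO cells, 15 of the 27 had every agonist library above every vehicle library, as did 2.55% of all rows, and 0 had every one below, as did 1.97% of all rows. In WT cells 0 of the 27 separated in either direction, while 19.8% of all rows separated upward and 17.7% downward. With KO vehicle replicate 6 and KO agonist replicate 2 left out together, all 27 were called higher in KO cells (median 0.57). These 2 libraries were picked after their values were seen. They were the highest KO vehicle (5.70) and the lowest KO agonist library (5.75) in the mean log2 level of the 27. Leaving them out was thus bound to raise the difference in that mean, and no such pair was left out in WT cells. The WT calls depended on the scaling. Setting 1 common total per library moved the median of all rows to −0.24 in WT cells. There 0 of 27 were called higher and the median was 0.12, which is 0.36 above that of all rows. Quantile scaling left 9 of 27 called in WT cells, and both scalings gave 27 of 27 in KO cells. The number of members called higher, 27 of 44 in KO cells, was 8, 11, 14 and 14 without KO agonist replicate 1, 4, 5 or 6, and 16, 13 and 13 without KO vehicle replicate 3, 4 or 5. In WT cells it was 28, and 18 without WT vehicle replicate 3 or 5. In KO cells 8 genes (Cenpa, Cenpf, Top2a, Cenpe, Bub1b, Ttk, Ccna2 and Ccnb1) were called higher whichever library was left out.

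Genes of the centromere and kinetochore, the platform on which chromosomes attach to the spindle, were all called higher in KO cells (6 of 6). Cenpa, which encodes the histone H3 variant that marks centromeres, had 29.2, 33.8 and 37.1 scaled units with agonist, against 16.9, 22.6 and 23.3 with vehicle. Every agonist library lay above every vehicle library, and the log2 fold change was 0.65 ± 0.11 (adjusted p = 0.00732), the smallest adjusted p among the members. Cenpf, which encodes a large kinetochore protein, had 18.8, 23.0 and 26.4 in KO cells with agonist, against 13.2, 15.1 and 19.4 with vehicle. Its groups overlapped only at their edges, with a log2 fold change of 0.55 ± 0.11 (adjusted p = 0.00981). Cenpe, the kinetochore motor gene, had 26.5, 34.0 and 35.2 with agonist, against 19.5, 20.8 and 30.6 with vehicle (0.53 ± 0.12, adjusted p = 0.0127). The vehicle value of 30.6 was that of KO vehicle replicate 6, and the next highest vehicle library stood at 22.7. Ndc80 and Nuf2, partners in the complex that grips microtubules, rose by 0.39 ± 0.10 and 0.34 ± 0.10. Birc5, which encodes survivin of the chromosomal passenger complex, rose by 0.46 ± 0.13. The KO calls of Ndc80, Nuf2 and Birc5 were lost in 2, 9 and 7 of 24 fits that left out a library.

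In WT cells 5 of these 6 were called higher, Cenpa by 0.34 ± 0.11 (adjusted p = 0.0132) and Cenpe by 0.42 ± 0.12 (adjusted p = 0.00368). Cenpa had 27.3, 38.1 and 44.3 scaled units in WT cells with agonist, against 23.3, 28.2 and 35.6 with vehicle, and these groups overlapped. Ndc80 did not pass in WT cells (0.23 ± 0.10, adjusted p = 0.0586), and with the same total per library its sign turned (−0.01).

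The spindle checkpoint holds anaphase until all kinetochores are attached, and its target is the anaphase-promoting complex. Their genes were called higher in KO cells in 5 of 5 cases. The KO calls of Ube2c, Bub1 and Cdc20 were lost in 13, 7 and 2 of 24 fits that left out a library. Bub1b, which encodes the checkpoint protein BUBR1, had 52.0, 64.9 and 73.0 scaled units with agonist, against 40.0, 41.8 and 47.5 with vehicle (0.58 ± 0.13, adjusted p = 0.0141). Ttk had 12.1, 13.4 and 15.5 with agonist, against 6.79, 8.16 and 11.4 with vehicle (0.62 ± 0.14, adjusted p = 0.0142). Both genes had non-overlapping KO groups. In WT cells Bub1b and Ttk did not pass (0.26 ± 0.13 and 0.29 ± 0.14, adjusted p = 0.0918 and 0.0848), while the other three of this group, Bub1, Cdc20 and Ube2c, did. Bub1, a kinase gene of the checkpoint, had 18.5, 29.5 and 33.7 scaled units in WT cells with agonist, against 13.5, 18.6 and 25.7 with vehicle (0.52 ± 0.14, adjusted p = 0.00235). Ube2c, which encodes the ubiquitin-conjugating enzyme that works with the anaphase-promoting complex, had 153, 223 and 263 in WT cells with agonist, against 113, 154 and 202 with vehicle (0.49 ± 0.14, adjusted p = 0.00316).

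Mitotic cyclins and kinases were called higher in 6 of 7 genes in KO cells and in 7 of 7 in WT cells. Ccnb1, which encodes cyclin B1, the partner of CDK1, had 61.0, 72 and 84.7 scaled units in KO cells with agonist, against 41.6, 47.4 and 52.9 with vehicle (0.60 ± 0.14, adjusted p = 0.0149), with no overlap. WT cells had 59.3, 87.8 and 104 with agonist, against 44.3, 62.8 and 85.1 with vehicle (0.44 ± 0.14, adjusted p = 0.00863). Ccna2, the cyclin A2 gene, rose by 0.63 ± 0.14 in KO cells and by 0.37 ± 0.14 in WT cells. Plk1, which encodes the polo-like kinase of mitotic entry, had the highest fold change of the 44 members in KO cells, 0.69 ± 0.17. The Aurora kinase genes Aurka and Aurkb rose by 0.40 ± 0.12 and 0.50 ± 0.13 in KO cells and by 0.30 ± 0.12 and 0.40 ± 0.13 in WT cells. The Aurka call was lost in 8 of 24 fits that left out a library in KO cells and in 7 of 24 in WT cells. The highest adjusted p was 0.0889 without KO agonist replicate 1 and 0.107 without WT vehicle replicate 5.

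Among genes that build and divide the spindle, all 5 motor and microtubule genes and both cytokinesis genes were called higher in KO cells. Many of these KO calls were fragile. Of 24 fits that left out a library, 16 lost the call of Tpx2, 14 that of Ect2 and 12 that of Prc1. Kif11 lost it in 10, Kif23 in 9, Kif20a in 6 and Racgap1 in 5. Kif11, the motor gene that separates spindle poles, rose by 0.45 ± 0.13 in KO cells and by 0.43 ± 0.13 in WT cells. The midzone and spindle assembly genes Prc1 and Tpx2 rose by 0.31 ± 0.10 and 0.39 ± 0.12 in KO cells and by 0.32 ± 0.10 and 0.41 ± 0.12 in WT cells. Kif20a, a kinesin gene of the midzone, rose by 0.50 ± 0.14 in KO cells and did not pass in WT cells (0.24 ± 0.14, adjusted p = 0.132). Ect2, which encodes the RhoA activator of the cleavage furrow, rose by 0.37 ± 0.12 in KO cells. In WT libraries it had 70.2, 93.2 and 107 scaled units with agonist, against 49.4, 66.8 and 87.3 with vehicle. Its fold change there, 0.49 ± 0.12 (adjusted p = 0.000986), had the smallest adjusted p among the mitosis genes of that comparison. Top2a, which encodes the topoisomerase that untangles chromosomes, had 112, 137 and 149 scaled units in KO cells with agonist, against 82.9, 90.9 and 95.5 with vehicle (0.56 ± 0.12, adjusted p = 0.0125). WT cells had 109, 147 and 159 with agonist, against 68.8, 103 and 137 with vehicle (0.51 ± 0.12, adjusted p = 0.00111). Its KO groups were fully separate and its WT groups overlapped.

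Mki67 rose in KO cells by 0.52 ± 0.16 (adjusted p = 0.0427), a call that rests on few libraries. KO vehicle replicate 6 stood at 66.0, beside a next highest vehicle value of 38.3, and without it the fold change was 0.66 (adjusted p = 0.01). Leaving out other single KO libraries lost the call in 10 of 24 fits, with adjusted p up to 0.0969 without KO agonist replicate 1. In WT cells Mki67 missed the call (0.36 ± 0.16, adjusted p = 0.0560).

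**Figure D2:**
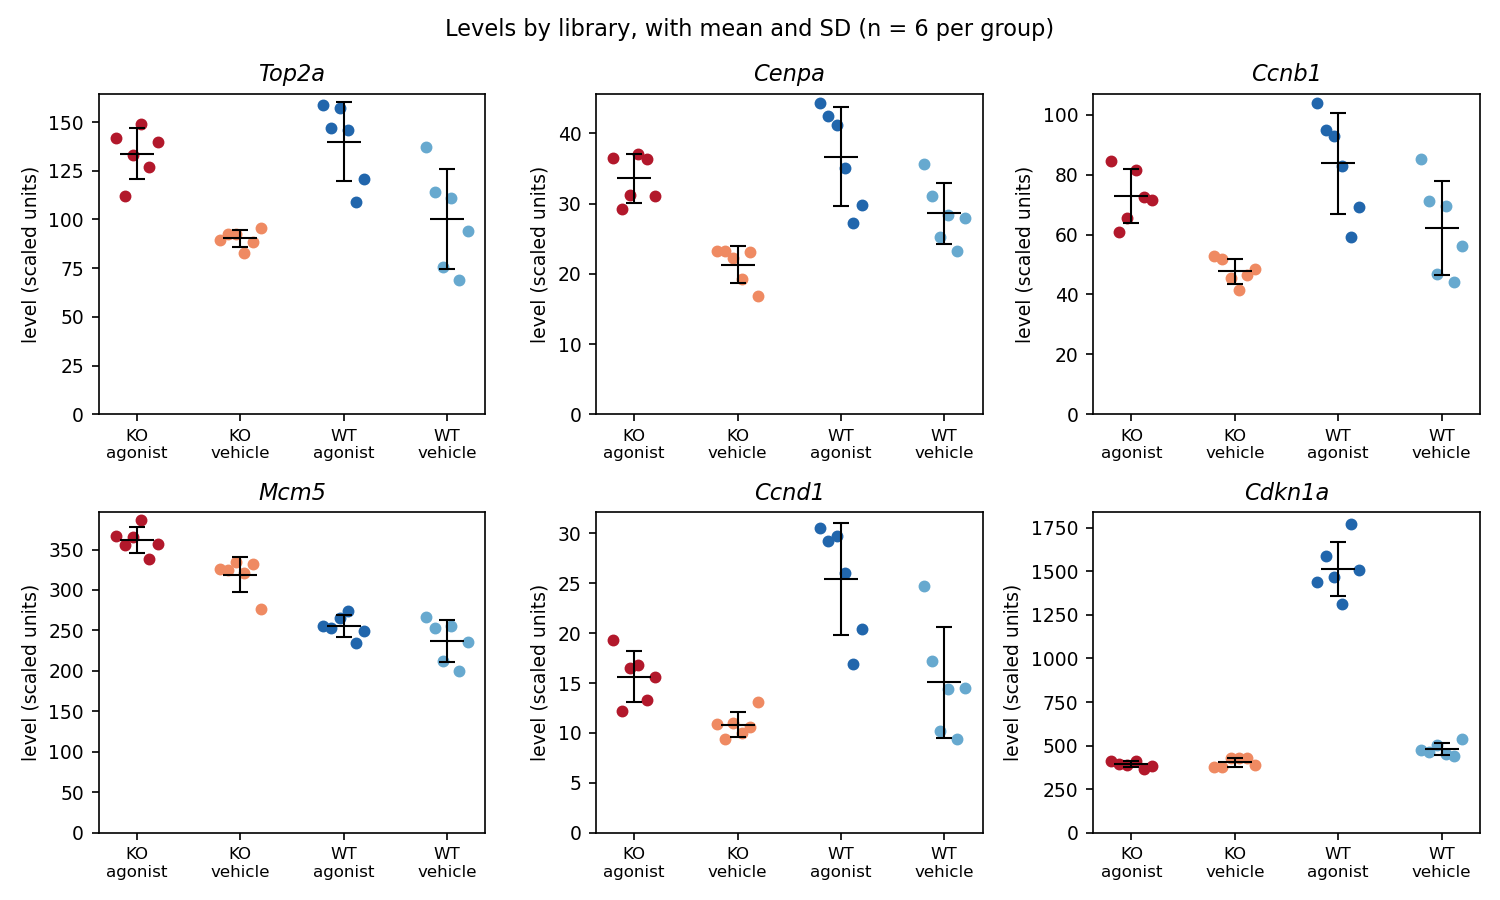
Levels in scaled units (vertical axes, from 0) of Top2a, Cenpa, Ccnb1, Mcm5, Ccnd1 and Cdkn1a, with a point for each of 6 libraries per group and bars for the mean and SD. Top2a, Cenpa and Ccnb1 are higher with agonist in both genotypes, with separate groups in KO cells and overlapping groups in WT cells; their WT calls were lost with the same total per library. Mcm5 is higher in both KO groups than in both WT groups, and Cdkn1a is high in WT agonist libraries alone.

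Genes of DNA replication had smaller fold changes with the agonist. Of all rows, 4.66% were called higher and 4.64% lower in KO cells. Of the 14, 1 was called higher in KO cells (Rrm1) and 0 lower, with a median log2 fold change of 0.14, against −0.01 over all rows. The KO count was 4 with KO vehicle replicate 6 and KO agonist replicate 2 left out together, 5 with quantile scaling, 4 without WT vehicle replicate 1 or 5, and 2 with the same total per library or without KO agonist replicate 2, WT agonist replicate 5 or WT vehicle replicate 3. It was 0 without KO agonist replicate 1, 3, 4, 5 or 6 and without KO vehicle replicate 4 or 5. In WT cells 28.6% of all rows were called in each direction. Of the 14 replication genes, 5 were called higher there and 1 lower, with a median of 0.10. That count of higher genes was 2 without WT vehicle replicate 3 or 5 and 8 without WT vehicle replicate 1. The 6 MCM helicase subunit genes had fold changes between 0.06 and 0.18 in KO cells, where none was called (7 of the 14 replication genes had an unadjusted p below 0.05 in limma), and between −0.10 and 0.15 in WT cells, where Mcm3 was called (0.15 ± 0.05, adjusted p = 0.0160). In KO cells 6 of the 14 replication genes nevertheless had every agonist library above every vehicle library, against 2.55% of all rows, and in WT cells 0 did.

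Of the 11 licensing and fork genes, 0 were called in KO cells. In WT cells Mcm3 and Pcna were called higher and Gins2 lower, against 28.6% of all rows in each direction. Cdc6, which loads the MCM helicase, had 26.0, 29.8 and 30.4 scaled units in KO cells with agonist, against 21.8, 24.9 and 25.8 with vehicle. Its KO groups were fully separate, and it did not pass (0.25 ± 0.09, adjusted p = 0.0725); in WT cells it had 0.17 ± 0.09 (adjusted p = 0.123). Cdt1, the origin licensing factor, had 138, 154 and 162 scaled units in KO cells with agonist, against 115, 142 and 148 with vehicle (0.15 ± 0.08, adjusted p = 0.198). WT cells had 77.7, 86.7 and 101 with agonist, against 76.2, 93 and 103 with vehicle (−0.04 ± 0.08, adjusted p = 0.709). Gins2, a subunit of the replicative helicase, was the only member called lower with agonist, in WT cells (−0.15 ± 0.06, adjusted p = 0.0327). It had 16.6, 18.3 and 19.1 in WT cells with agonist, against 17.5, 20.6 and 21.7 with vehicle, so the groups overlapped, and leaving out single libraries lost this call in 7 of 24 fits (adjusted p up to 0.0847 without WT agonist replicate 3).

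All 3 genes of nucleotide supply were called higher in WT cells, as were 28.6% of all rows. Rrm1 and Rrm2 encode the subunits of ribonucleotide reductase, which makes deoxynucleotides. Rrm2 had 132, 151 and 172 scaled units in KO cells with agonist, against 108, 118 and 123 with vehicle, fully separate, and did not pass (0.37 ± 0.12, adjusted p = 0.0571). WT cells had 102, 136 and 164 with agonist, against 70.4, 98.4 and 129 with vehicle (0.47 ± 0.12, adjusted p = 0.00245). Rrm1 rose by 0.20 ± 0.06 in KO cells (adjusted p = 0.0305, lost in 7 of 24 fits without single KO libraries, up to 0.0779 without KO agonist replicate 1) and by 0.18 ± 0.06 in WT cells. Tyms, which encodes thymidylate synthase, had 0.18 ± 0.06 in KO cells (adjusted p = 0.0710) and rose by 0.17 ± 0.06 in WT cells. The WT calls of Mcm3, Tyms and Pcna were lost in 2, 3 and 3 of 24 fits that left out a library. Without WT vehicle replicate 5 the adjusted p of Mcm3 and Tyms was 0.0577 and 0.0674. Without WT vehicle replicate 3 that of Pcna was 0.0769. These WT calls were lost or turned with the same total per library, where Rrm1 stood at −0.06, Tyms at −0.06 and Mcm3 at −0.10. With that scaling 7 of the 14 replication genes were called lower and 0 higher in WT cells. The median of the 14 was then −0.15, against −0.24 over all rows.

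Of the 3 cyclins of G1 and S phase entry, Ccnd1 responded. It encodes cyclin D1, which links growth signals to CDK4 and CDK6. In KO cells it had 12.2, 16.0 and 19.3 scaled units with agonist, against 9.39, 10.8 and 13.1 with vehicle (0.50 ± 0.17, adjusted p = 0.0667), and passed without KO vehicle replicate 6 (0.55, adjusted p = 0.0478). In WT cells it had 16.9, 27.6 and 30.5 scaled units with agonist, against 9.39, 14.5 and 24.7 with vehicle (0.78 ± 0.17, adjusted p = 0.000481). These WT groups overlapped, the fold change was the largest of any member in either genotype, and the call held whichever library was left out. Ccne1 and Ccne2, the cyclin E genes, were not called in either genotype, with fold changes of 0.11 ± 0.08 and −0.13 ± 0.10 in KO cells and 0.02 ± 0.08 and −0.06 ± 0.10 in WT cells.

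**Figure D3:**
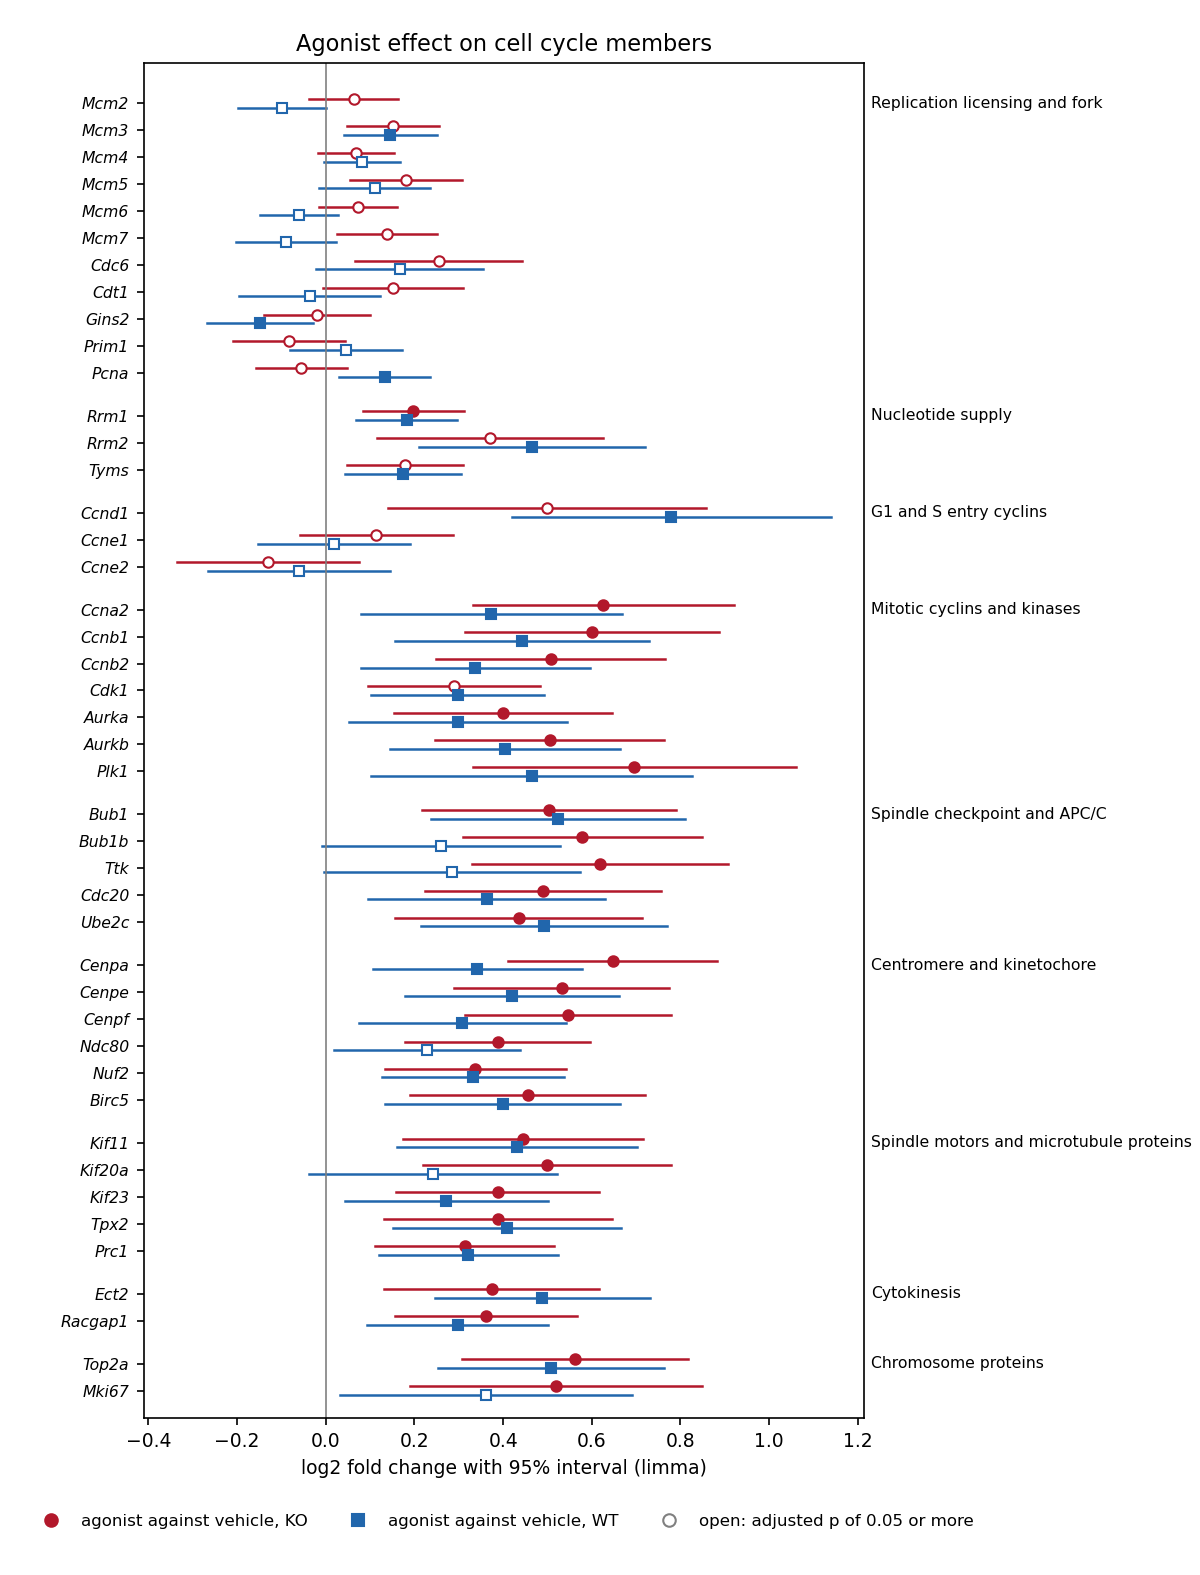
Log2 fold change of agonist against vehicle (horizontal axis, with 95% limma intervals) for the 44 members by role, in KO cells (red circles, upper of each pair) and WT cells (blue squares, lower of each pair); open symbols did not pass. All 27 mitosis genes lie right of 0 in both genotypes, with medians of 0.50 in KO and 0.36 in WT cells, and the 6 Mcm genes lie between −0.10 and 0.18, while Rrm2 lies at 0.37 and 0.47; with the same total per library Ndc80 in WT cells and most replication genes in WT cells turn to the left of 0.

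Whether the agonist effect differed between genotypes was tested as an interaction, the WT fold change minus the KO fold change. A negative value means a more positive fold change in KO cells, which can come from a rise there or a fall in WT cells. For the 27 mitosis genes 0 were called, 0 had an unadjusted p below 0.05 in limma, and the values ran from −0.33 (Ttk) to 0.11 (Ect2) with a median of −0.11. Over all rows 41.1% were called, 21.5% higher and 19.6% lower. For Top2a the interaction was −0.05 with a 95% interval of −0.41 to 0.31, and for Cenpa it was −0.31 with an interval of −0.64 to 0.03. The intervals leave room for differences of that size, so the genotypes are not shown to act alike. In both genotypes 22 members were called higher, 81.5% of the KO list and 78.6% of the WT list. Their fold changes come from separate sets of libraries, but the calls share 1 estimate of the spread. The share of all rows called higher in both genotypes was not computed. With the same total per library 9 of the 27 mitosis genes were called with a more positive fold change in KO than in WT cells. Their median interaction was then −0.39, against −0.28 over all rows, and 7545 of 11557 rows were called in either direction. With that scaling 0 of the 27 were called higher with agonist in WT cells.

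Among the members, Mcm7 and Pcna were called for the interaction. Other scalings moved this count. With the same total per library 11 of the 14 replication genes were called with a more positive fold change in KO than in WT cells. Their median interaction was then −0.32, near the −0.28 of all rows. Quantile scaling gave 7, with a median of −0.22, against −0.07 over all rows. With the same total 7 of the 14 were called lower with agonist in WT cells and 0 higher. A negative interaction there thus need not mean a larger effect in KO cells. Mcm7, an MCM helicase subunit gene, had 386, 404 and 426 scaled units in KO cells with agonist, against 337, 376 and 379 with vehicle. WT cells had 292, 323 and 357 with agonist, against 303, 355 and 383 with vehicle. The agonist effect was 0.14 ± 0.05 in KO cells and −0.09 ± 0.05 in WT cells, neither called alone, and the interaction was −0.23 ± 0.08 (adjusted p = 0.0202, called whichever library was left out). Pcna, which encodes the sliding clamp of DNA polymerases, had 211, 219 and 225 in KO cells with agonist, against 199, 228 and 246 with vehicle. In WT cells it had 182, 192 and 214 with agonist, against 161, 179 and 192 with vehicle. Its effects were −0.06 ± 0.05 in KO cells and 0.13 ± 0.05 in WT cells, and the interaction was 0.19 ± 0.07 (adjusted p = 0.0338). That call was lost in 7 of 24 fits that left out a library, with the highest adjusted p of 0.0671 without WT vehicle replicate 3, and with the same total per library the sign turned (−0.09).

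The second question was how KO cells differed from WT cells under the same treatment. Most called replication genes were higher in KO cells. With the authors' scaling, mitosis genes were called less often than all rows, and the few called were lower. Under vehicle, 8 of 14 replication genes were called higher and 1 lower in KO cells, with a median log2 fold change of 0.21, and 13 of the 14 were positive. Of 27 mitosis genes, 0 were called higher and 3 lower, with a median of −0.14. Over all rows 47.8% were called, 23.9% higher and 23.9% lower, and the median was 0.00. Under agonist 7 of 14 replication genes were called higher and 0 lower (median 0.19), and 0 mitosis genes were called higher and 1 lower (median −0.03). There 64.1% of all rows were called, 32% higher and 32.1% lower, and the median was 0.01. Other scalings left the vehicle count of replication genes at 8 higher and 1 lower, and raised the agonist count to 14 (same total) and 13 (quantile) of 14. Under agonist their medians were then 0.48 and 0.39, while those of all rows moved to 0.28 and 0.07.

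Of the licensing and fork genes, Cdt1, Gins2 and Mcm5 had the largest genotype differences. Cdt1 was 0.78 ± 0.08 higher in KO than in WT cells under agonist (adjusted p = 2.33e-09) and 0.59 ± 0.08 under vehicle (adjusted p = 7.13e-07), with every KO library above every WT library in both. Its levels under vehicle were 115, 142 and 148 scaled units in KO cells, against 76.2, 93 and 103 in WT cells. Gins2 was 0.66 ± 0.06 higher under agonist and 0.53 ± 0.06 under vehicle, at 26.8, 29.8 and 30.8 in KO cells with vehicle, against 17.5, 20.6 and 21.7 in WT cells with vehicle. Mcm5 was 0.50 ± 0.06 higher under agonist and 0.43 ± 0.06 under vehicle (adjusted p = 8.59e-08 and 2.45e-06). It had 276, 326 and 334 scaled units in KO cells with vehicle, against 200, 245 and 266 in WT cells with vehicle. The libraries of Gins2 and Mcm5 also separated fully under both treatments. Full separation upward held for 21.7% of all rows under agonist and 13.2% under vehicle. Downward it held for 24.6% and 14.1%.

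The MCM subunits, which work together in 1 complex, did not all differ between genotypes in the same direction. Mcm6 was 0.32 ± 0.04 higher in KO cells under agonist and 0.19 ± 0.04 under vehicle, at 489, 538 and 564 scaled units in KO cells with vehicle, against 436, 476 and 490 in WT cells with vehicle. Mcm7 was 0.32 ± 0.05 higher under agonist and was not called under vehicle (0.09 ± 0.05, adjusted p = 0.165). Mcm3 and Mcm4 were not called under either treatment, with fold changes of 0.08 to 0.10. Mcm2 was lower in KO cells under vehicle (−0.20 ± 0.05, adjusted p = 0.00161), at 135, 160 and 162 scaled units in KO cells, against 165, 178 and 195 in WT cells, fully separate. Under agonist Mcm2 had −0.04 ± 0.05, and this turned to 0.25 with the same total per library.

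Other replication genes followed with smaller differences. Pcna was 0.17 ± 0.05 higher in KO cells under agonist and 0.36 ± 0.05 under vehicle, and its libraries under vehicle were fully separate. Prim1, which encodes the DNA primase subunit, was called under vehicle (0.24 ± 0.06) and had 0.11 ± 0.06 under agonist (adjusted p = 0.126). Tyms was 0.26 ± 0.06 higher in KO cells under both treatments. Rrm2 was called under vehicle only just (0.31 ± 0.12, adjusted p = 0.0431, lost in 8 of 24 fits, up to 0.131 without WT vehicle replicate 5).

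The entry cyclins split. Ccne2 was higher in KO cells under agonist (0.32 ± 0.10) and under vehicle (0.39 ± 0.10), with separate libraries in both, although the KO vehicle maximum of 19.7 was that of replicate 6 and the next was 13.8. Ccne1 was called under agonist (0.29 ± 0.08, adjusted p = 0.00333) and missed under vehicle (0.20 ± 0.08, adjusted p = 0.0501). Ccnd1 was lower in KO cells under agonist (−0.67 ± 0.17, adjusted p = 0.00157) and had −0.39 ± 0.17 under vehicle (adjusted p = 0.0655). Setting the same total per library brought the agonist value to −0.39, which missed the call (adjusted p = 0.0518), and with quantile scaling that of Ccne2 was 0.23 and missed it (adjusted p = 0.0557).

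Among mitosis genes Cdk1 was lower in KO cells under agonist (−0.34 ± 0.09, adjusted p = 0.00262) and under vehicle (−0.34 ± 0.09, adjusted p = 0.00492). It had 60.3, 65.1 and 70.2 scaled units in KO cells with vehicle, against 66.3, 84.4 and 102 in WT cells with vehicle, and the groups overlapped. The Cdk1 call under agonist was lost with the same total per library (−0.06) and with quantile scaling (−0.17). Cenpa (−0.41 ± 0.11, adjusted p = 0.00433) and Ccnb1 (−0.34 ± 0.14, adjusted p = 0.0449) were called lower under vehicle. The Ccnb1 call was lost in 10 of 24 fits that left out a library, with adjusted p up to 0.138 without WT vehicle replicate 1. Under agonist Cenpa and Ccnb1 had −0.11 ± 0.11 and −0.18 ± 0.14 and were not called. With the same total per library 12 of 27 mitosis genes were called higher in KO cells under agonist and 0 lower. That scaling moved the median of all rows to 0.28, and the median of the 27 was 0.25, slightly below it. The count is thus not a result particular to mitosis genes.

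**Figure D4:**
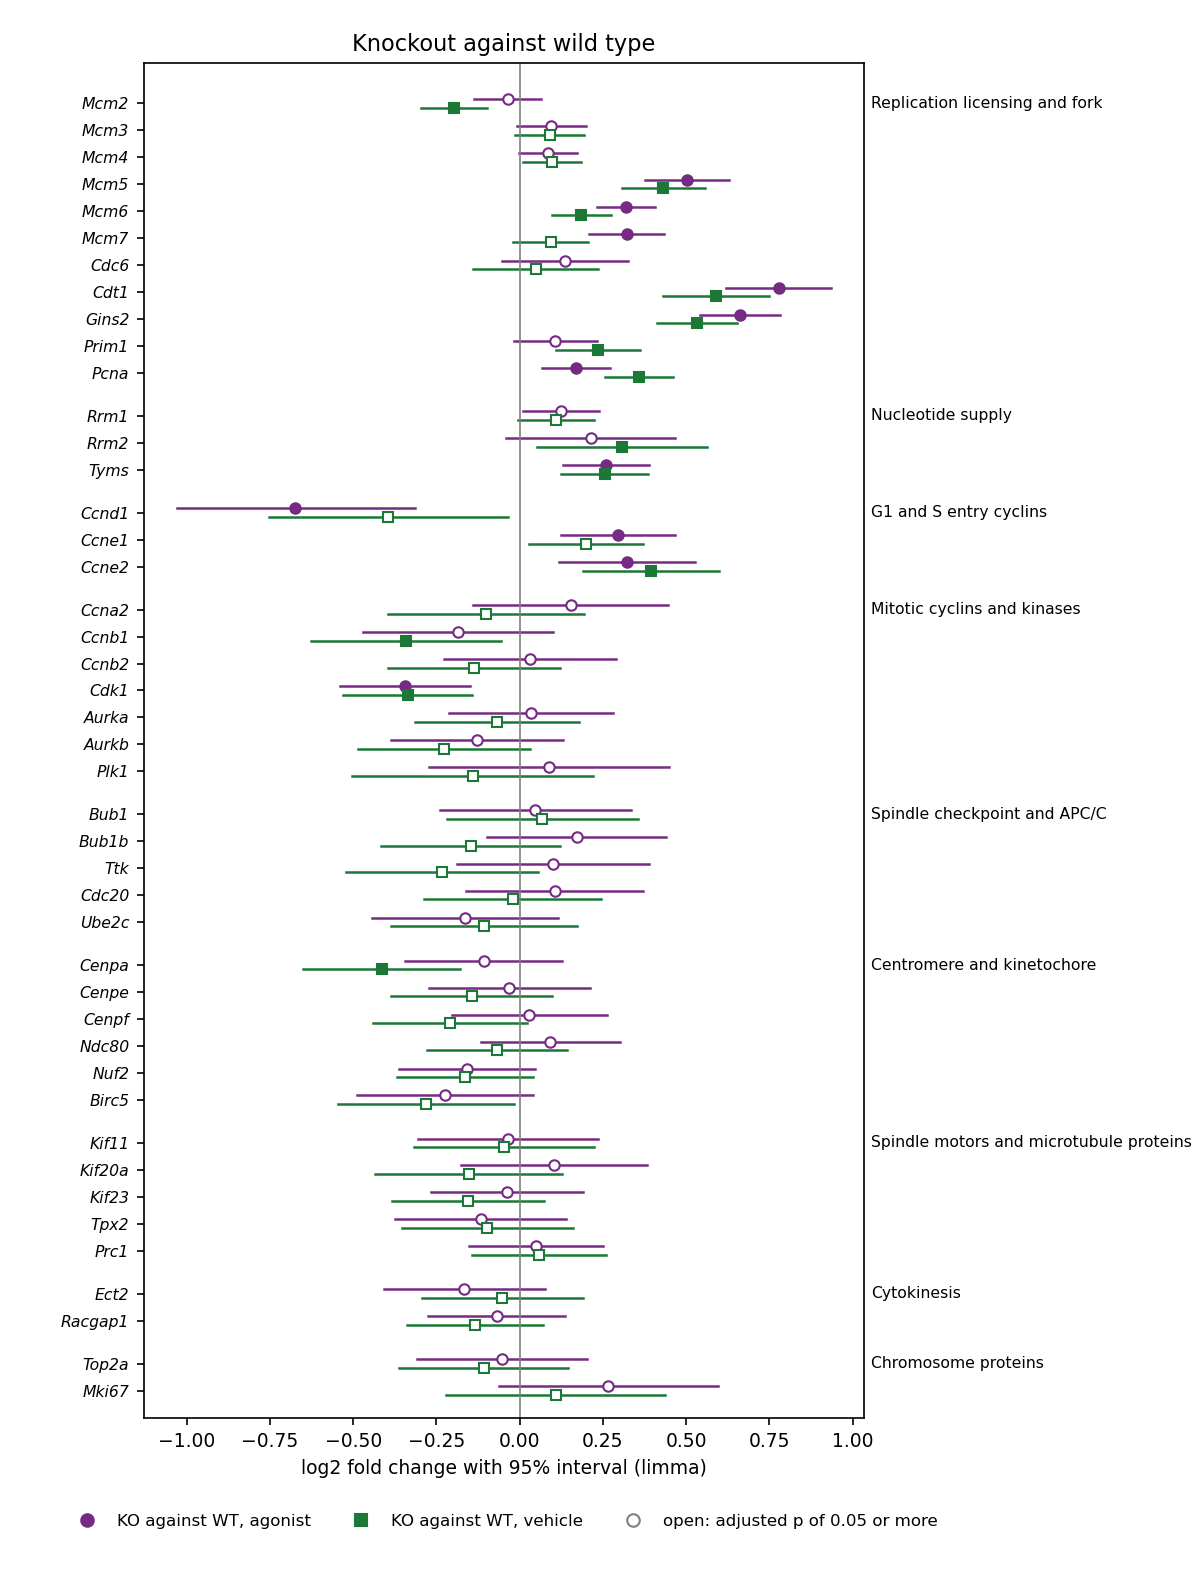
Log2 fold change of KO against WT cells (horizontal axis, with 95% limma intervals) for the 44 members by role, under agonist (upper of each pair) and under vehicle (lower of each pair); open symbols did not pass. Cdt1, Gins2 and Mcm5 lie between 0.43 and 0.78 and most mitosis genes have intervals across 0; with the same total per library the agonist values shift to the right and Mcm2 turns positive.

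The mitosis genes also varied together between libraries of 1 group. The median within-group SD of log2 levels was 0.24 for the 27 mitosis genes and 0.10 for the 14 replication genes, against 0.12 over all rows and 0.10 over rows in the same range of mean level. Single libraries were extreme for nearly the whole block. KO agonist replicate 2 was the lowest of its group for 25 of the 27, and KO vehicle replicate 6 was the highest for 19. WT agonist replicate 5 was the lowest for 25 and replicate 1 the highest for 21, while WT vehicle replicate 5 was the lowest for 22 and replicate 1 the highest for all 27. The mean log2 level of the 27 ran from 5.75 to 6.11 in KO cells with agonist, 5.33 to 5.70 in KO cells with vehicle, 5.60 to 6.26 in WT cells with agonist and 5.24 to 6.03 in WT cells with vehicle. Thus the KO groups did not overlap in this mean and the WT groups did.

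KO vehicle replicate 6 stood at opposite ends of its group for different members. It was the highest of its group for Mki67, Kif23, Tpx2, Ube2c and Cenpe, but the lowest for Cenpa (16.9), Cdc20 and the replication genes Mcm2, Mcm3 and Mcm5. Whether its RNA or its handling differed was not tested.

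**Figure D5:**
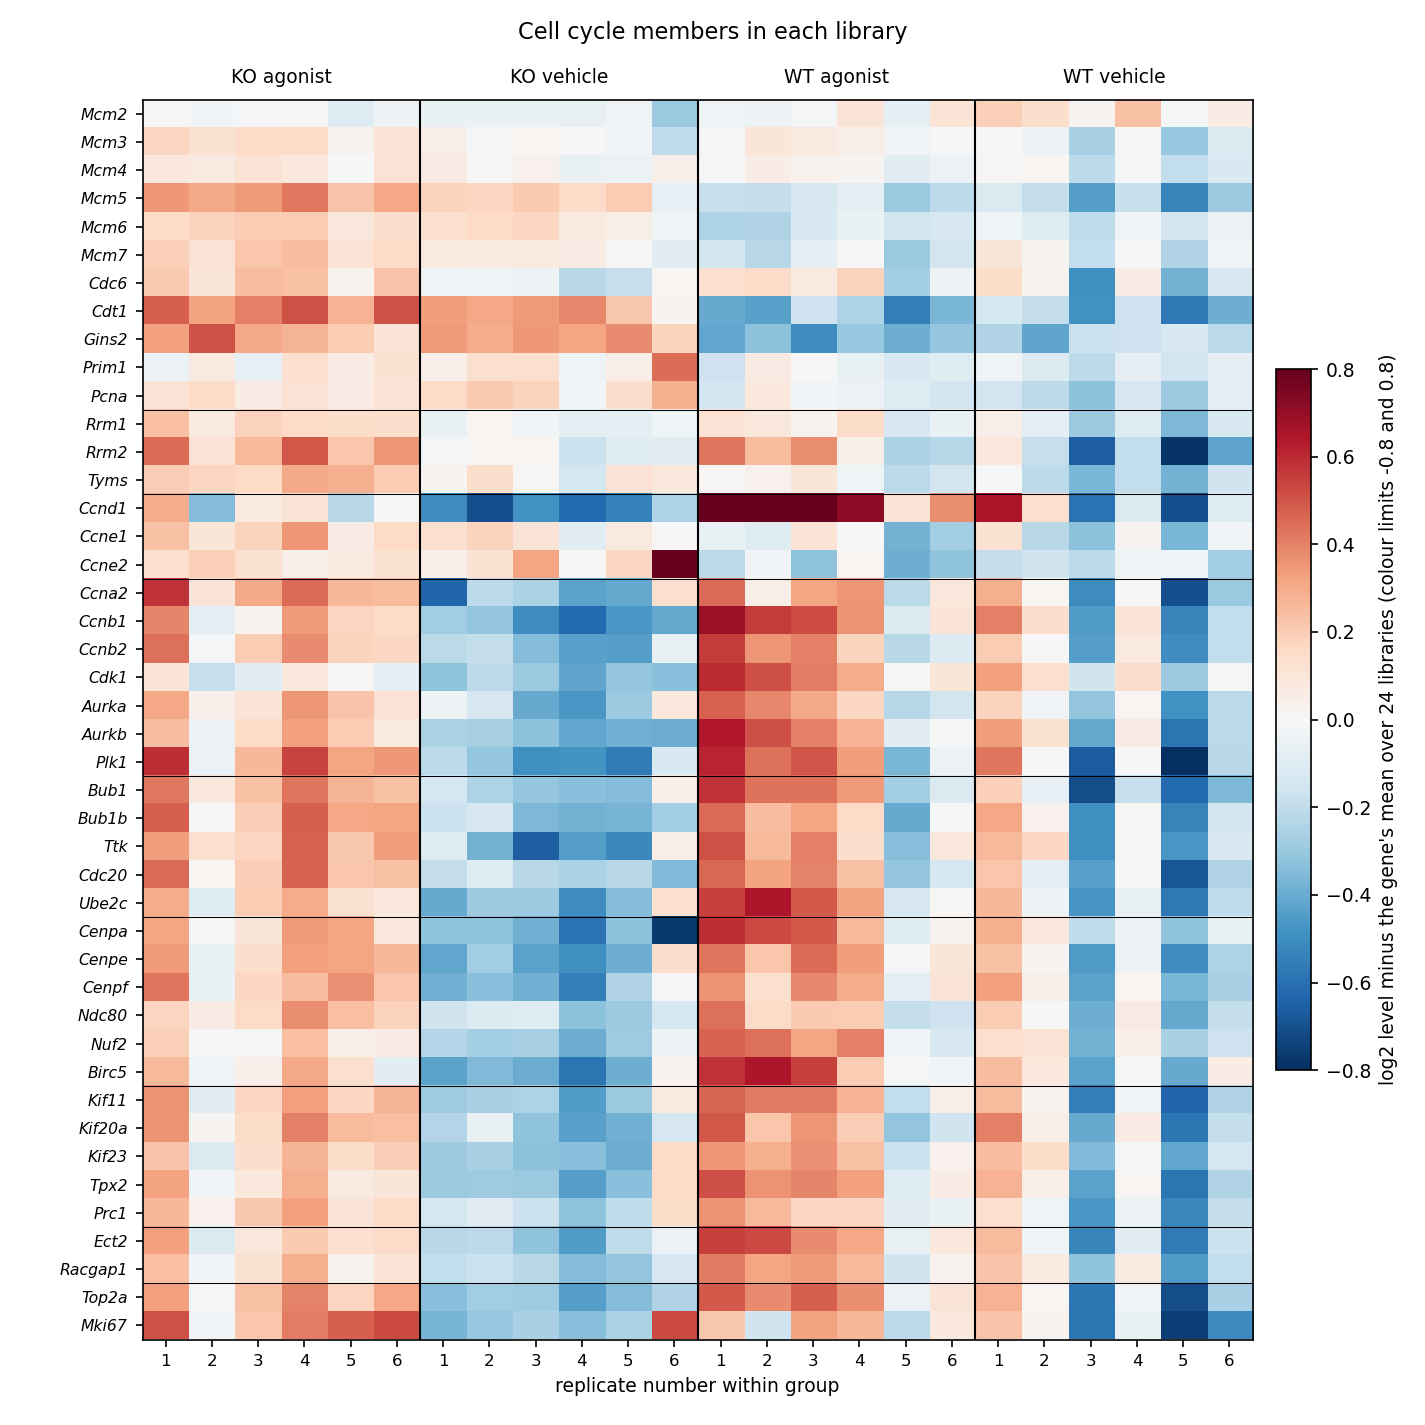
Log2 level of each member minus its mean over the 24 libraries (colour, red higher and blue lower, limits −0.8 and 0.8) for 6 libraries in each of 4 groups; black lines part groups and roles. Mitosis rows are mostly red in KO agonist and mostly blue in KO vehicle libraries, WT vehicle replicates 3 and 5 are blue for all mitosis rows, and Mcm5, Cdt1 and Gins2 are red in the KO groups except in KO vehicle replicate 6, where Mcm5 is pale blue and Cdt1 is near white.

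Genes outside the 45 that belong to the same pathways were read from lists of other replication, mitosis and cell cycle control genes. Of 50 other mitosis genes, 31 were called higher and 1 lower with agonist in KO cells (median 0.36). In WT cells 36 were called higher and 0 lower (median 0.31). Of all rows, 4.66% were called higher and 4.64% lower in KO cells, and 28.6% in each direction in WT cells. In KO cells Aspm, a spindle pole gene, and Kif2c, a microtubule-depolymerizing kinesin gene, rose by 0.63 ± 0.13 and 0.64 ± 0.14. Lmnb1, which encodes lamin B1 of the nuclear envelope, rose by 0.35 ± 0.07 in KO cells and by 0.74 ± 0.07 in WT cells, and this difference was called (interaction 0.39 ± 0.10, adjusted p = 0.00413), though not with the same total per library (0.11, adjusted p = 0.379). Zwint, a kinetochore linker gene, had opposite signs, −0.13 ± 0.03 in KO cells and 0.27 ± 0.03 in WT cells (interaction 0.39 ± 0.05, adjusted p = 3.26e-07). Its KO call was lost in 3 of 24 fits that left out a library (adjusted p up to 0.0593 without KO agonist replicate 6). With the same total per library neither effect of Zwint was called alone (−0.09 in KO and 0.03 in WT cells), while the interaction was (0.12).

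Of 38 other replication genes, 8 were called higher and 2 lower with agonist in KO cells, and 7 higher and 4 lower in WT cells. These WT counts are below the 28.6% of all rows called in each direction. In KO cells 4.66% of all rows were called higher and 4.64% lower. Between genotypes 21 were higher and 3 lower in KO cells under agonist (median 0.19), and 20 higher and 4 lower under vehicle (median 0.14). Of all rows, 32% were called higher and 32.1% lower under agonist, and 23.9% in each direction under vehicle. Orc6, an origin recognition complex gene, was 0.39 ± 0.05 higher in KO cells under vehicle, at 95.1, 102 and 118 scaled units in KO cells, against 75.0, 79.3 and 81.7 in WT cells. Rfc1, of the clamp loader, was 0.26 ± 0.03 higher, also with separate libraries. Gmnn, which encodes geminin, the inhibitor of CDT1, was lower in KO cells, with differences of −0.52 ± 0.07 under agonist and −0.73 ± 0.07 under vehicle (adjusted p = 2.48e-07 and 2.45e-09). It had 61.6, 68.5 and 75.7 scaled units in KO cells with vehicle, against 99.0, 117 and 123 in WT cells with vehicle, so Cdt1 and Gmnn differed in opposite directions.

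Regulators of these genes were read from a list of their own. Foxm1 and Mybl2, which encode the activators FOXM1 and B-MYB of mitosis genes, rose in KO cells by 0.46 ± 0.12 and 0.50 ± 0.12 and in WT cells by 0.45 ± 0.12 and 0.31 ± 0.12, and neither interaction was called. The KO call of Foxm1 was lost in 3 of 24 fits that left out a library (adjusted p up to 0.0626 without KO agonist replicate 1). The WT call of Mybl2 was lost in 5 of 24 (up to 0.0878 without WT vehicle replicate 5). Both WT calls were lost with the same total per library (0.21 and 0.07). Of the 16 measured E2F, MuvB, B-MYB and FOXM1 genes, 2 were called higher and 1 lower in KO cells, and 5 higher and 2 lower in WT cells. Over all rows 4.66% were called higher in KO cells and 28.6% in WT cells, so the WT count is near that of all rows. E2f3 had 0.08 ± 0.04 in KO cells and rose by 0.49 ± 0.04 in WT cells, with an interaction of 0.42 ± 0.06 (adjusted p = 6.51e-06), which was not called with the same total per library (0.14, adjusted p = 0.0770). Foxm1 was lower in KO cells than in WT cells, at −0.47 ± 0.12 under agonist (−0.18 and not called with the same total per library) and −0.49 ± 0.12 under vehicle.

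Among inhibitors of the cycle, Cdkn1a, which encodes the CDK inhibitor p21, had 366, 391 and 414 scaled units in KO cells with agonist, against 376, 409 and 430 with vehicle (−0.04 ± 0.06, adjusted p = 0.667). In WT cells it had 1310, 1490 and 1770 with agonist, against 443, 469 and 536 with vehicle (1.66 ± 0.06, adjusted p = 1.28e-17). The interaction was 1.70 ± 0.09 (adjusted p = 2.48e-14). Cdkn1b, which encodes the inhibitor p27, had −0.03 ± 0.05 in KO cells and fell by 0.62 ± 0.05 in WT cells (interaction −0.59 ± 0.08, adjusted p = 7.21e-07). Rb1, the retinoblastoma gene, had 0.02 ± 0.07 in KO cells and rose by 0.39 ± 0.07 in WT cells; with the same total per library the WT value was 0.16 and was not called. Of the 9 measured inhibitor and pocket protein genes, 1 was called higher in KO cells and 0 lower, and 3 were called higher and 3 lower in WT cells. These WT counts are close to the 28.6% of all rows called in each direction.

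A list of D cyclins, CDKs and the kinases, phosphatases and ubiquitin ligase subunits around them had 13 of 16 genes measured, none of which was a D cyclin. Of these 13, 3 were called higher and 1 lower in KO cells, and likewise 3 and 1 in WT cells. The WT counts are below the 28.6% of all rows called in each direction. In KO cells 4.66% of all rows were called higher and 4.64% lower. Wee1, which encodes the kinase that restrains CDK1, had 27.6, 31.5 and 32.7 scaled units in KO cells with agonist, against 31.0, 34.6 and 36.0 with vehicle (−0.12 ± 0.06, adjusted p = 0.170). WT cells had 63.8, 68.5 and 81.1 with agonist, against 38.9, 43.6 and 45.8 with vehicle (0.70 ± 0.06, adjusted p = 1.66e-10), and the interaction was 0.83 ± 0.08 (adjusted p = 1.02e-08). Cdc25b and Cdc25c, which encode phosphatases that release CDK1, rose in KO cells by 0.41 ± 0.09 and 0.58 ± 0.14, with separate libraries. In WT cells Cdc25c rose by 0.38 ± 0.14, a call lost with the same total per library (0.15). It was also lost in 4 of 24 fits that left out a library (adjusted p up to 0.0667 without WT vehicle replicate 5). The interaction for Cdc25b was −0.36 ± 0.12 (adjusted p = 0.0209).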

How the data were processed

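Poly(A) RNA of 24 libraries, 6 per group, was sequenced. The deposited table holds a signal per gene, which by its values is a read count divided by a library factor and by gene length, as made by the authors. The submitters' processing notes name STAR 2.7.8a, DESeq2, DESeq and the build GRCm39 without giving their roles. Whether counting used strand is not given in the sources used here. Dividing the low values by their steps returned whole reads within 0.1 read, 29.8 to 51.9 M per library. No library duplicated another (highest r between libraries 0.9975).

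Deposited values were multiplied by 92.1, 1 constant for all libraries, to give scaled units. Rows with a mean of at least 1 were kept, and log2(scaled units + 0.5) was fitted with limma 3.58.1 in R 4.3.3 with trended, robust variances, all groups in 1 model with 20 residual degrees of freedom. Tests were two-sided with Benjamini-Hochberg adjustment over all rows kept. The pseudocount understates fold changes of low genes. The fit was tested on simulated data. Each result was recomputed with other pseudocounts, filters, scalings and variance settings, with a replicate block, and without each library in turn. Rows with joined names (333) were not used for members.

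The members and lists were chosen with earlier results of these data known. All members could be named. Values per library were set for Top2a, Mki67, Ccnd1, Cdkn1a, the 6 members with the smallest adjusted p for the agonist in each genotype and for KO against WT under vehicle, and those called for the interaction. Other lists gave up to 4 called genes per comparison by adjusted p. Further members shown with library values were chosen after their values were seen.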

Additional observations from a re-analysis of the deposited data

Results flagged for a closer look

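In groups of 6, a library was marked when its gap to the nearest library, divided by the group's range of levels, passed Dixon's 95% critical value. Chance marks about 1 in 20 such groups, and 13 of 176 were marked among the 44 members. KO vehicle replicate 6 accounts for 12 of them. It was the lowest of its group for Mcm2 (gap share 0.888; 135 scaled units, next 159), Mcm3 (0.693; 196, next 222) and Mcm5 (0.774; 276, next 321). It was the highest for Mki67 (0.899; 66, next 38.3), Kif23 (0.79; 90.7, next 67.7), Tpx2 (0.779; 73.9, next 54.1), Ube2c (0.726; 184, next 137) and Cenpe (0.713; 30.6, next 22.7). It was also the highest for Prim1 (0.691; 86.6, next 69.5), Birc5 (0.673; 97.9, next 75.2), Ccne2 (0.672; 19.7, next 13.8) and Kif11 (0.663; 54.6, next 43.5). KO agonist replicate 2 was the lowest of its group for Kif23 (0.633; 74.9, next 89.7).

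The agonist effect in WT minus that in KO cells was called for Mcm7 (−0.228) and Pcna (0.188), by the limma interaction test.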

How the results depend on the processing

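Depth does not limit these genes, the lowest of which lies well above the filter; the scaling and single libraries do. With the same total per library and with quantile scaling, members called higher with agonist in WT cells numbered 1 and 11 (28 as reported) and lower 9 and 4 (1 as reported). Interaction calls were 0 and 0 with a more positive fold change in WT cells, and 21 and 7 with a more positive one in KO cells. KO against WT under agonist gave 28 and 14 members higher and 0 and 1 lower. With the same total, 7545 rows were called for the interaction, and companion genes called numbered 68 for the interaction and 83 for KO against WT under agonist. Signs turned, with the same total and with quantile scaling, for Mcm3 (−0.0953 and −0.0822), Mcm4 (−0.16 and −0.141) and Pcna (−0.108 and −0.0859) with agonist in WT cells, for the interaction of Mcm4 (−0.264 and −0.241) and Pcna (−0.0882 and −0.0581), and for Mcm2 in KO against WT under agonist (0.251 and 0.204). With the same total alone they turned with agonist in WT cells for Prim1 (−0.194), Rrm1 (−0.0584), Tyms (−0.0602), Ccne1 (−0.217) and Orc6 (−0.0765), and for the interaction of Orc6 (−0.0488). The same total lowers WT agonist values against WT vehicle in all rows, since every WT agonist total was higher. The median of all rows became −0.24 with agonist in WT cells, −0.28 for the interaction and 0.28 for KO against WT under agonist. Quantile scaling gave −0.06, −0.07 and 0.07. Why the totals differed, and why signs turned with quantile scaling, was not tested. Without KO vehicle replicate 6 and KO agonist replicate 2, 2623 rows were called in KO cells and 2 members were lower in WT cells. Leaving out 1 library at a time, members higher in KO cells ranged from 8 (without KO agonist replicate 1) to 32, all rows called in KO cells from 284 to 1851 and companion genes called in KO cells from 17 to 57. Members higher in WT cells ranged from 18 (without WT vehicle replicate 3 or 5) to 36 and lower from 0 to 2. Interaction calls ranged from 0 to 1 higher and 1 to 3 lower, and members lower in KO than WT cells under vehicle from 3 to 7 (without WT vehicle replicate 5). The planned edgeR test was not run, since the table holds no counts; voom weights on recovered reads, chosen after seeing the data, gave 27 members higher in KO and 28 in WT cells. Replicate numbers did not pair most samples (8 of 24 pairs had r over 0.1, and 5 matched their own number best). Between the WT groups, replicates 1 and 5 matched their own number best (r = 0.223 and 0.488). Replicate 1 had the highest and replicate 5 the lowest mean log2 level of the mitosis genes in both WT groups. Whether the numbers mark a shared batch was not tested. With the replicate block 33 members were higher in KO and 31 in WT cells. With the block, KO against WT under vehicle gave 11 higher and 5 lower, under agonist 10 and 2, and the interaction 1 and 1.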
